A study of Mus musculus with 12 samples.

Results

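The 9 genes described here are Esrrb, Zfp42, Tfcp2l1, Nr0b1, Nr5a2, Prdm14, Tbx3, Tcl1 and Jam2, the factors that surround Esrrb in the naive pluripotency network of mouse embryonic stem (ES) cells. They were chosen by gene symbol from the 54537 genes of a table of FPKM, and all 9 were found and passed the filter on low values. FPKM counts sequenced fragments relative to transcript length and library size, so levels can be compared between genes. Poly(A) RNA was sequenced from a line labelled WT+1343KO-a14, called 1343KO here, and from a line labelled WT. The study behind the table knocked out long noncoding RNAs in ES cells with CRISPR-Cas9, and its title ties the small nucleolar RNA SNORA73 to the exit from pluripotency, so the comparisons ask how the network stood in ES cells and what became of it during differentiation. Each line was sampled at day 0 as ES cells grown on gelatin in serum with leukaemia inhibitory factor (LIF), the cytokine that holds mouse ES cells in self-renewal, and at days 8 and 16 as embryoid bodies, floating aggregates in medium with serum and no LIF. The 6 groups were thus 1343KO and WT at days 0, 8 and 16, with 2 libraries each and 12 in all. Neither the target of 1343KO nor the leading WT+ is explained in the labels, and 1343KO is 1 clone, so each comparison is between these labelled lines.

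Naive pluripotency is the state of the epiblast before implantation, and mouse ES cells keep it through a set of transcription factors that activate one another and share their targets with Oct4, Sox2 and Nanog. LIF acts through the kinase JAK and the factor STAT3 on Tfcp2l1 and Klf4, while inhibition of the kinase GSK3 lifts the repressor TCF7L1 (encoded by Tcf7l1) from Esrrb, and Esrrb in turn supports Nr0b1, Tbx3, Klf4 and other members. When LIF is withdrawn these factors are normally lost as the cells pass through a formative state marked by Otx2 and Fgf5 into the embryonic lineages. Esrrb, Nr5a2 and Nr0b1 are orphan nuclear receptors, Zfp42 and Prdm14 are zinc finger proteins, Tfcp2l1 and Tbx3 are transcription factors of the Grainyhead-like and T-box families, Tcl1 encodes a coactivator of the kinase AKT, and Jam2 encodes an adhesion protein of cell junctions.

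The start regions of these genes are shown because 8 of the 9 differed between the lines in the same direction at day 8, and their starts can be compared for the sites of the factors named above. Of the 9 genes, 6 had windows in RefSeq's promoter table (GRCm38.p6), with 8 windows in all, each of 300 bases from 250 before to 50 after a transcript start; Prdm14, Tbx3 and Jam2 were not in that table. Sequences run 5′ to 3′ along the gene's own strand, and capitals mark a match to one of 7 motifs that were searched on both strands. The upstream Esrrb window is chr12:86360867-86361166 on the plus strand, Zfp42 is chr8:43306960-43307259 on the minus strand, Tfcp2l1 is chr1:118627695-118627994 on the plus strand, Nr0b1 is chrX:86191525-86191824 on the plus strand, and the upstream Nr5a2 window is chr1:136960399-136960698 on the minus strand.
Esrrb: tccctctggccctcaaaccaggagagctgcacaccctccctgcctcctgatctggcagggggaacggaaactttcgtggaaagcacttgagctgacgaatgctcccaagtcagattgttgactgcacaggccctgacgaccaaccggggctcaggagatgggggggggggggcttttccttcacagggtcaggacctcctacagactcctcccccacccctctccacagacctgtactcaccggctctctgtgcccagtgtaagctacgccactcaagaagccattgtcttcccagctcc
Zfp42: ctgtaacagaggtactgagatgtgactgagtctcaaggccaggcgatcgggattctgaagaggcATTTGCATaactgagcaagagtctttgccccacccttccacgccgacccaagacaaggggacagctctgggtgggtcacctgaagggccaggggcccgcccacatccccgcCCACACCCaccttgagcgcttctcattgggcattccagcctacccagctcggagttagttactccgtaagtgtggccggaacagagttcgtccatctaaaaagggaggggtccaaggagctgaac
Tfcp2l1: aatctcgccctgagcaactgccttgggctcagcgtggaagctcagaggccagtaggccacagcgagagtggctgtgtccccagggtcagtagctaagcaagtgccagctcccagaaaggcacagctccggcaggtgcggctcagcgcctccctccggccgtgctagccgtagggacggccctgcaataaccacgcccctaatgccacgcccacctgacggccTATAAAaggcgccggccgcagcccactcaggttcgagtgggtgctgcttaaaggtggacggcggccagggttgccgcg
Nr0b1: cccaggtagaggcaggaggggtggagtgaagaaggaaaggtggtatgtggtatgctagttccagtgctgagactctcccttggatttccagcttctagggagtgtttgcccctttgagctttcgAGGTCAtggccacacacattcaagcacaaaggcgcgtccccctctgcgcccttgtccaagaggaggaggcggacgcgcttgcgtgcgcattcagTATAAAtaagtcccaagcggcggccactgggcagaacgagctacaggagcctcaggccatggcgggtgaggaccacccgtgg
Nr5a2: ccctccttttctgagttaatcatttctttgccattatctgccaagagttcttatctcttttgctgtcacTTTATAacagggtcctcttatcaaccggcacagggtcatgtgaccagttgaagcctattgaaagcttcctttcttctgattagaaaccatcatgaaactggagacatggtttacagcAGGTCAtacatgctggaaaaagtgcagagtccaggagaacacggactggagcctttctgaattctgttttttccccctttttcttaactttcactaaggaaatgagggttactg

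The Zfp42 window held the octamer ATGCAAAT, the sequence read by Oct4, on the reverse strand at position -186 from the start, and the KLF box CCACACCC at position -75. The octamer was present in 1.74% of all 32851 windows of the table and the KLF box in 3.56%. Nr0b1 and the upstream Nr5a2 window held AGGTCA, the core read by nuclear receptors, at positions -126 and -64, a motif in 16.3% of all windows. The longer AAGGTCA read by Esrrb, which contains AGGTCA, was in none of the 8 member windows and in 4.72% of all windows. The STAT sequence TTCCNGGAA (1.15% of all windows) and the TCF sequence ATCAAAG (3.73%) were in none of the 8 windows either. TATAAA, the TATA box, stood at position -28 in Tfcp2l1 and -32 in Nr0b1, and on the reverse strand at position -181 in the upstream Nr5a2 window, and 13.6% of all windows held it. These are matches of letters in short windows, and binding was not measured. The 7 motifs were chosen after the windows were seen, so the shares over all windows are no test of these matches. The GC content of the 8 windows ranged from 42.0% to 65.3%, against a median of 52.7% over all windows, and their CpG count from 2 in the upstream Nr5a2 window to 21 in Tfcp2l1, against a median of 7.

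The libraries held about 4815000 to 7916000 fragments, an approximate depth read from the steps of the lowest values, and 12909 to 14069 genes reached 1 FPKM. Replicates correlated at 0.970 to 0.975 across genes, which are not independent replicates. The summed level of 6 ES cell identity genes (Pou5f1, Sox2, Sall4, Utf1, Lin28a and Tdgf1) was 1868 to 1966 FPKM in 1343KO and 1874 to 1876 FPKM in WT at day 0, and all 6 were detected. Snhg3, the host gene of the mouse SNORA73 copies, was listed between 0 and 1.57 FPKM in the 6 1343KO libraries and between 8.31 and 61.1 FPKM in the 6 WT libraries. Changes below are differences of log2(FPKM + 1), a scale that shrinks those of low genes, with the standard error (SE) and p-values from limma adjusted by Benjamini-Hochberg over 16289 genes. The threshold was an adjusted p of 0.05.

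As ES cells, the lines did not differ in any of the 9 genes at the threshold, and after 8 and 16 days without LIF 8 of the 9 were higher in 1343KO than in WT. At day 0, 0 of 9 members passed with limma (2 at an unadjusted p under 0.05), where 3.71% of all genes tested passed, 1.59% higher and 2.12% lower. That count, 604 genes, was 203 to 513 with 1 library left out, lower without any of the 4 day 0 libraries than without any later one and lowest without replicate 2 of WT at day 0, and it was 0 with the 4 day 0 libraries fitted alone. The libraries of the lines did not overlap in any of the 9 genes at day 0 either, as for 45% of all genes, nor at day 8 (70.8% of all genes) or day 16 (75.3%). At day 8, 8 members were higher and Tbx3 was lower in 1343KO, against 42.8% of all genes that passed in either direction, 23.3% higher and 19.6% lower. The members' median change at day 8 was 3.30, against 0.06 over all genes. At day 16 the same 8 members were higher and Tbx3 did not pass, where 52.6% of all genes passed, 28.5% higher and 24.1% lower; the median was 2.60 for the members and 0.07 over all genes. The share of calls over all genes that were higher in 1343KO at day 8 was 54.3% as deposited and 41.0% when each library was scaled to the same sum (TPM), and the members' calls were the same 9 under both. In these bulk samples, fewer cells of a type and less RNA per cell cannot be told apart.

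**Figure D1:**
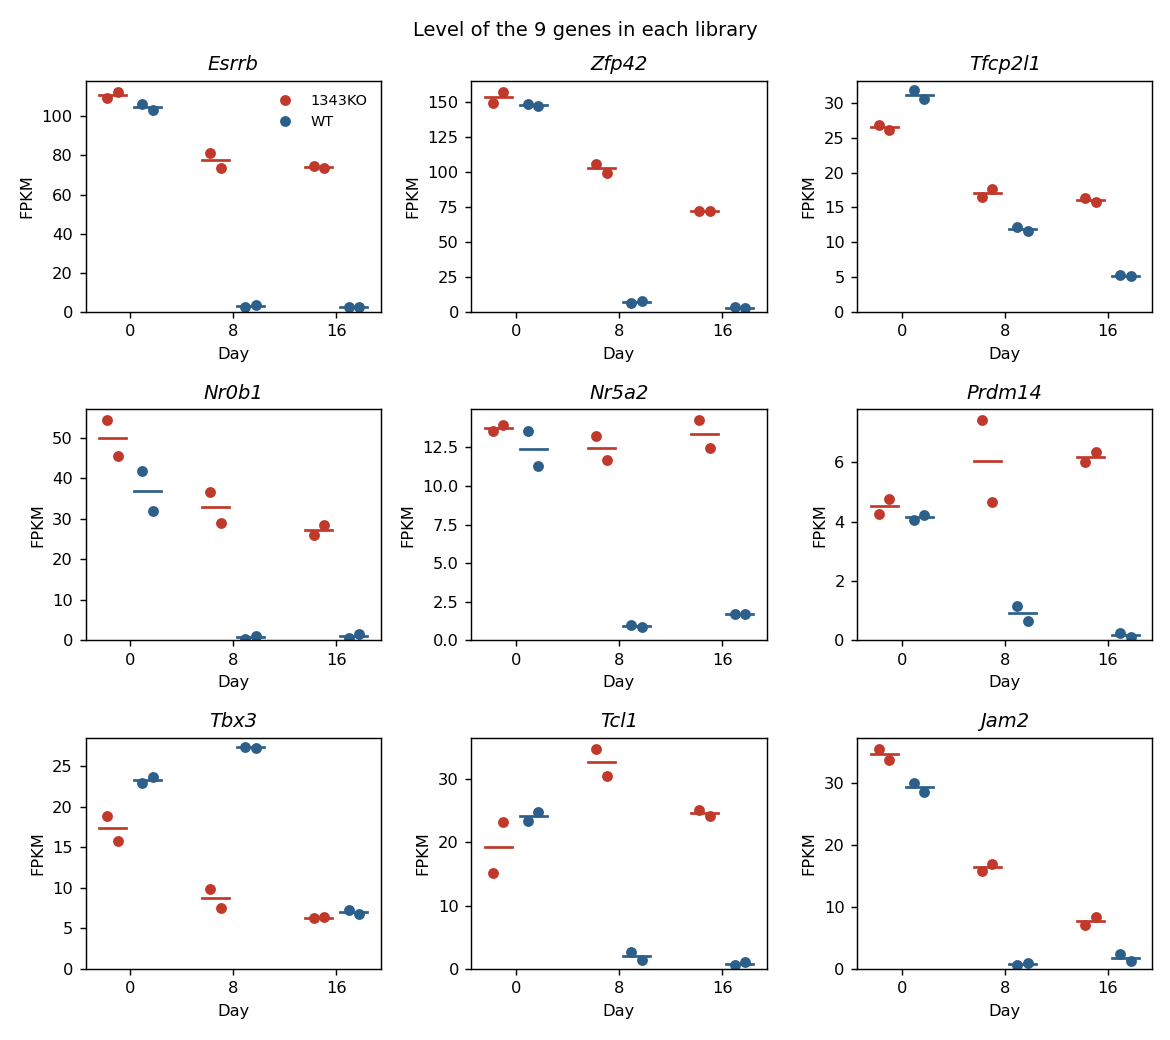
Level of each of the 9 genes in FPKM (vertical axis) by day (horizontal axis), with 1 point per library for 1343KO (red, left of each pair) and WT (blue, right) and a bar at the mean of 2 libraries. At day 0 the lines lie close together, and at days 8 and 16 the WT points of every gene but Tbx3 lie below all 1343KO points of that day.

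Esrrb (ENSMUSG00000021255, chr12:86361117-86521628, plus strand, 6 annotated transcripts) encodes the estrogen-related receptor beta, an orphan receptor that binds DNA without a known ligand and can stand in for Nanog in ES cells. Esrrb was at 109 and 113 FPKM in 1343KO and at 106 and 103 FPKM in WT at day 0. It was at 81.2 and 73.7 FPKM in 1343KO and at 2.62 and 3.74 FPKM in WT at day 8. It was at 74.8 and 73.5 FPKM in 1343KO and at 2.51 and 2.64 FPKM in WT at day 16. The 1343KO embryoid bodies thus held most of the ES cell level of Esrrb while the WT ones had almost none, and no library of one line came near the other after day 0. Day by day, mean FPKM in 1343KO was 1.06, 24.3 and 28.8 times that in WT at days 0, 8 and 16. The log2 change between the lines was 0.08 ± 0.12 at day 0 (95% interval -0.19 to 0.35, adjusted p = 0.814), 4.24 ± 0.12 at day 8 (adjusted p = 4.72e-08) and 4.39 ± 0.12 at day 16 (adjusted p = 1.58e-08). Within 1343KO, Esrrb fell by 0.51 at day 8 (adjusted p = 0.0139) and fell by 0.57 at day 16 (adjusted p = 0.00722), both against day 0. At day 8 the change was -0.54 without replicate 1 of 1343KO at day 0, -0.49 without replicate 2 and -0.45 without replicate 2 of 1343KO at day 8, so its size held while adjusted p (0.0514, 0.0706 and 0.0883) missed the threshold. Within WT it fell by 4.67 at day 8 and fell by 4.89 at day 16 (adjusted p = 8.97e-09 and 4.07e-09).

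Nr0b1 (ENSMUSG00000025056, chrX:86191764-86195947, plus strand, 1 transcript) encodes DAX1, a receptor without the usual DNA-binding domain that acts on other receptors and is a target of Esrrb and STAT3 in ES cells. Its level was 54.3 and 45.5 FPKM in 1343KO and 41.8 and 31.9 FPKM in WT at day 0. At day 8 it was 36.6 and 29.0 FPKM in 1343KO and 0.418 and 1.00 FPKM in WT. At day 16 it was 25.9 and 28.4 FPKM in 1343KO and 0.566 and 1.55 FPKM in WT. Like Esrrb, Nr0b1 nearly vanished from WT embryoid bodies, where each value stands for about 5 to 17 fragments, and stayed well above them in 1343KO. The log2 change between the lines was 0.43 ± 0.26 at day 0 (interval -0.15 to 1.02, adjusted p = 0.456), 4.32 ± 0.26 at day 8 (adjusted p = 2.36e-06) and 3.82 ± 0.26 at day 16 (adjusted p = 2.53e-06). Within 1343KO its change from day 0 was -0.59 ± 0.26 at day 8 (adjusted p = 0.136) and -0.85 ± 0.26 at day 16 (adjusted p = 0.0378). That day 16 call ended without any 1 of the 4 libraries compared (adjusted p = 0.0793 to 0.166), with a pseudocount of 0.1 (0.177), with no filter (0.085), with TPM scaling (0.0747) and with the replicate number as a block (0.0514). Within WT it fell by 4.48 at day 8 (adjusted p = 9.42e-07), and at day 16 it fell by 4.23 (adjusted p = 7.38e-07).

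Nr5a2 (ENSMUSG00000026398, chr1:136842571-136960448, minus strand, 6 transcripts) encodes LRH-1, an orphan receptor that binds the Pou5f1 regulatory region and, like Esrrb, can help reprogramme cells. It was at 13.6 and 13.98 FPKM in 1343KO and at 13.5 and 11.3 FPKM in WT at day 0. The levels were 13.3 and 11.7 FPKM in 1343KO and 1.02 and 0.850 FPKM in WT at day 8. They were 14.3 and 12.5 FPKM in 1343KO and 1.73 and 1.71 FPKM in WT at day 16. In 1343KO the 6 libraries lay in 1 narrow band whatever the day, and the WT embryoid bodies lay far below it. The lines differed by 0.14 ± 0.14 at day 0 (adjusted p = 0.704), 2.80 ± 0.14 at day 8 (adjusted p = 1.07e-06) and 2.40 ± 0.14 at day 16 (adjusted p = 1.25e-06). In 1343KO the change from day 0 was -0.14 (interval -0.46 to 0.19) at day 8 and -0.04 (interval -0.37 to 0.28) at day 16, with adjusted p = 0.558 and 0.867. In WT Nr5a2 fell by 2.79 at day 8 and was 0.49 ± 0.14 higher at day 16 than at day 8 (adjusted p = 0.0318), a call that ended without any 1 of those 4 WT libraries (adjusted p = 0.0649 to 0.14).

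Zfp42 (ENSMUSG00000051176, chr8:43295063-43306980, minus strand, 3 transcripts) encodes REX1, a zinc finger protein related to YY1 that serves as the standard reporter of naive ES cells. It was the highest of the 9 genes in ES cells, at 149 and 157 FPKM in 1343KO and 149 and 147 FPKM in WT at day 0. Day 8 levels were 106 and 99.1 FPKM in 1343KO and 6.08 and 7.77 FPKM in WT. Day 16 levels were 72.1 and 72.2 FPKM in 1343KO and 3.29 and 2.77 FPKM in WT. Every 1343KO library stayed far above WT, in which most Zfp42 was gone by day 8. The lines differed by 0.05 ± 0.11 at day 0 (interval -0.20 to 0.29, adjusted p = 0.894), 3.71 ± 0.11 at day 8 (adjusted p = 5.88e-08) and 4.18 ± 0.11 at day 16 (adjusted p = 1.25e-08). In 1343KO Zfp42 fell by 0.58 at day 8 (adjusted p = 0.00498) and fell by 1.08 at day 16 (adjusted p = 0.000139) against day 0, and the further change at day 16 against day 8, -0.50 ± 0.11, did not pass (adjusted p = 0.0879). In WT it fell by 4.24 at day 8, and at day 16 it fell by 5.21 against day 0 and fell by 0.97 against day 8 (adjusted p = 0.000214).

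Zfp42 lies on chromosome 8, whose genes stood apart between the lines. Where the mean level was 20 FPKM or more, the median change of the other 213 chromosome 8 genes at day 0 was -0.42, against 0.00 for 3910 genes on other chromosomes, while Zfp42 was at 0.05 and 200 of the 213 (93.9%) were below it. At day 8 the medians were -0.16 on chromosome 8 and 0.25 elsewhere, and at day 16 they were 0.06 and 0.40. All 213 were below Zfp42 at both of those days. The part of the chromosome-wide shift in the value of Zfp42 was not tested.

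**Figure D2:**
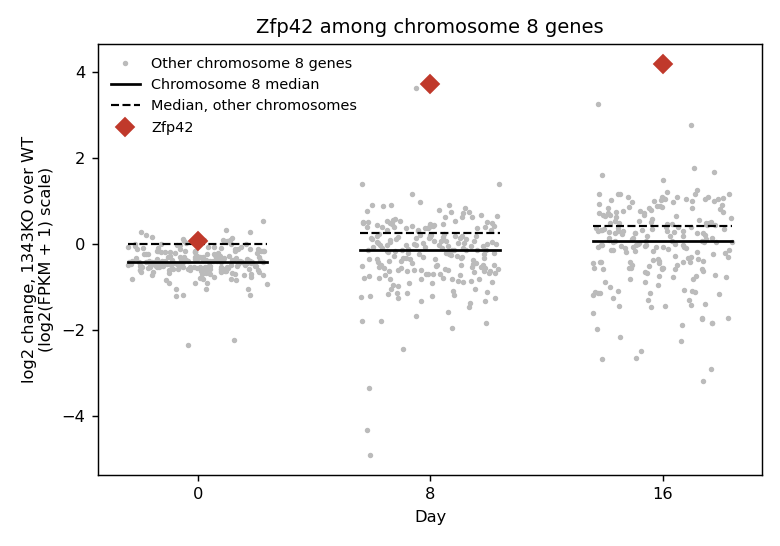
Log2 change of 1343KO over WT on the log2(FPKM + 1) scale (vertical axis) at each day (horizontal axis) for Zfp42 (red diamond) and 213 other chromosome 8 genes whose mean was 20 FPKM or more (grey points, spread sideways at random), with the chromosome 8 median (solid line) and the median of other chromosomes (dashed line). The chromosome 8 median lies below the other at every day, and Zfp42 lies above all grey points at days 8 and 16.

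Prdm14 (ENSMUSG00000042414, chr1:13113457-13127163, minus strand, 1 transcript) encodes a PR-domain zinc finger protein that represses FGF signalling and DNA methyltransferase genes in ES cells and is also needed by primordial germ cells. It was the lowest of the 9 in ES cells, at 4.27 and 4.77 FPKM in 1343KO and 4.07 and 4.24 FPKM in WT at day 0. At day 8 the values were 7.42 and 4.67 FPKM in 1343KO and 1.16 and 0.666 FPKM in WT. At day 16 they were 6.01 and 6.33 FPKM in 1343KO and 0.250 and 0.121 FPKM in WT. No 1343KO library was below the lowest ES cell library, whereas the WT day 16 values stand for only about 4 and 2 fragments, so no ratio between the lines is given for that day. The lines differed by 0.10 ± 0.22 at day 0 (interval -0.40 to 0.60, adjusted p = 0.898), 1.86 ± 0.22 at day 8 (adjusted p = 0.000151) and 2.60 ± 0.22 at day 16 (adjusted p = 1.13e-05). In 1343KO the change from day 0 was 0.32 ± 0.22 at day 8 and 0.38 ± 0.22 at day 16, and neither passed (adjusted p = 0.339 and 0.25). In WT Prdm14 fell by 1.44 at day 8 (adjusted p = 0.000496) and fell by 2.12 at day 16 (adjusted p = 2.69e-05). Germ cells also express Prdm14, and 10 germ cell markers summed to 251 to 276 FPKM in 1343KO and 24.5 to 30.8 FPKM in WT at day 8, and to 201 to 220 FPKM in 1343KO and 25.6 to 30.7 FPKM in WT at day 16. Of these 10, 9 were higher and 0 lower in 1343KO at each of those days, where 23.3% and 28.5% of all genes were higher. In ES cells the 10 already summed to 95.1 to 96.6 FPKM in 1343KO and 55.3 to 62.1 FPKM in WT at day 0. Dppa3 and Prdm1 among the 10 also stand in other lists used here, and Tex11 was at 0 in WT at days 8 and 16. Dppa3, which is also 1 of the 18 other naive factors, made up most of the 1343KO sum, with 175 and 159 FPKM at day 8 and 122 and 119 FPKM at day 16. The markers' part in the Prdm14 result was not tested.

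Tfcp2l1 (ENSMUSG00000026380, chr1:118627945-118685168, plus strand, 2 transcripts) encodes the factor through which STAT3 carries much of the LIF signal. Its levels at day 0 were 26.9 and 26.1 FPKM in 1343KO and 31.8 and 30.5 FPKM in WT. At day 8 they were 16.5 and 17.7 FPKM in 1343KO and 12.1 and 11.7 FPKM in WT, and at day 16 they were 16.4 and 15.8 FPKM in 1343KO and 5.28 and 5.15 FPKM in WT. Tfcp2l1 was thus the slowest of the WT losses but for Tbx3, and the lines drew apart by steps. The change between the lines was -0.23 ± 0.09 at day 0 (interval -0.43 to -0.02, adjusted p = 0.239), 0.49 ± 0.09 at day 8 (adjusted p = 0.00216) and 1.46 ± 0.09 at day 16 (adjusted p = 1.54e-06). Within 1343KO it fell by 0.60 at day 8 (adjusted p = 0.00154) and fell by 0.69 at day 16 (adjusted p = 0.000669). Within WT it fell by 1.32 at day 8, by 2.37 at day 16 and by 1.05 at day 16 against day 8 (adjusted p = 2.94e-06, 4.73e-08 and 5.16e-05). The step at day 16 against day 8 differed between the lines by 0.97 ± 0.13 (adjusted p = 0.00126).

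Tbx3 (ENSMUSG00000018604, chr5:119670669-119684724, plus strand, 6 transcripts) was the member that went its own way. It encodes a T-box factor that supports self-renewal in ES cells and is used again in endoderm and mesoderm of the embryo. At day 0 it was at 18.9 and 15.8 FPKM in 1343KO and at 22.9 and 23.7 FPKM in WT. At day 8 it was at 9.86 and 7.51 FPKM in 1343KO and at 27.4 and 27.3 FPKM in WT. At day 16 it was at 6.26 and 6.37 FPKM in 1343KO and at 7.21 and 6.73 FPKM in WT. The WT day 8 libraries were the highest of all 12 and the 1343KO day 8 libraries had already dropped below every ES cell library, so the lines stood far apart at day 8 alone. The change between the lines was -0.41 ± 0.14 at day 0 (interval -0.72 to -0.10, adjusted p = 0.158), -1.56 ± 0.14 at day 8 (adjusted p = 2.43e-05) and -0.12 ± 0.14 at day 16 (interval -0.43 to 0.19, adjusted p = 0.485). In 1343KO Tbx3 fell by 0.93 at day 8 and fell by 1.32 at day 16 (adjusted p = 0.00142 and 0.00017). In WT the change at day 8 was 0.22 ± 0.14 (adjusted p = 0.211), and Tbx3 fell by 1.83 at day 16 against day 8 (adjusted p = 2.37e-05) and by 1.61 against day 0. The antisense gene Tbx3os1 (chr5:119570130-119671365, minus strand) overlaps Tbx3 and reached at most 2.33 FPKM, and since the strand setting is not given in the sources used here, its reads and those of Tbx3 cannot be told apart in the overlap.

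Most markers of extraembryonic endoderm and blood were lower in 1343KO at day 8, as Tbx3 was. So were 9 of 10 endothelial, 9 of 10 fibroblast and mesenchyme and 6 of 8 heart muscle markers, beside 19.6% of all genes. The 15 extraembryonic endoderm markers already differed in ES cells, with 8 of 15 lower in 1343KO at day 0, beside 2.12% of all genes. None of them passed with that day's 4 libraries fitted alone. At that day they summed to 84.7 to 99.6 FPKM in 1343KO and 197 to 212 FPKM in WT. They summed to 181 to 198 FPKM in 1343KO and 2600 to 2639 FPKM in WT at day 8, with 14 of 15 lower in 1343KO. At day 16, when Tbx3 had fallen in WT, they summed to 133 to 144 FPKM in 1343KO and 11850 to 11898 FPKM in WT. Again 14 of 15 were lower in 1343KO, beside 24.1% of all genes. Afp made up most of that WT sum, at 8246 and 8139 FPKM. In WT at day 16 against day 8, 5 of the 15 rose, 2 fell and 8 did not pass. Over all genes 14.1% were higher and 13.5% lower in that step. The 10 blood markers summed to 4.18 to 7.53 FPKM in 1343KO and 1069 to 1190 FPKM in WT at day 8. At day 16 the sums were 23.4 to 30.3 FPKM in 1343KO and 46.7 to 52.7 FPKM in WT. Most of the WT day 8 sum came from Hbb-bh1 (760 and 844 FPKM) and Hba-x (257 and 290 FPKM). Of the 10, 8 were lower in 1343KO at day 8 and 4 at day 16, beside 19.6% and 24.1% of all genes. In WT at day 16 against day 8, 7 of the 10 fell and 3 rose. Itgam and Ptprc were at 0 in WT at day 8 and higher at day 16, and Csf1r went from 2.90 and 3.59 FPKM to 29.7 and 26.7 FPKM. The part of these cell types in the Tbx3 result was not tested.

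Tcl1 (ENSMUSG00000041359, chr12:105216750-105222793, minus strand, 6 transcripts) encodes a coactivator of AKT kinases that promotes ES cell proliferation. It was at 15.2 and 23.2 FPKM in 1343KO and at 23.4 and 24.9 FPKM in WT at day 0. At day 8 it stood at 34.8 and 30.5 FPKM in 1343KO and at 2.62 and 1.38 FPKM in WT, and at day 16 at 25.1 and 24.2 FPKM in 1343KO and at 0.653 and 1.00 FPKM in WT. Every later 1343KO library was above both 1343KO ES cell libraries, and the WT embryoid bodies were close to 0. The lines differed by -0.34 ± 0.23 at day 0 (interval -0.87 to 0.19, adjusted p = 0.529), 3.52 ± 0.23 at day 8 (adjusted p = 4.31e-06) and 3.82 ± 0.23 at day 16 (adjusted p = 1.36e-06). Within 1343KO Tcl1 rose by 0.76 ± 0.23 at day 8 against day 0 (adjusted p = 0.0437), the one rise among the 9 genes in that line. This call is a weak one: it ended under median-of-ratios scaling (adjusted p = 0.0678), TPM scaling (0.106), a pseudocount of 0.1 (0.098), no filter (0.0916) and the replicate block (0.0603), and when any of 9 libraries was left out, with the highest p, 0.24, without replicate 1 of 1343KO at day 0, the lowest library. At day 16 the change in 1343KO was 0.37 ± 0.23 (adjusted p = 0.28). In WT it fell by 3.10 at day 8 (adjusted p = 5.01e-06) and fell by 3.79 at day 16 (adjusted p = 7.92e-07).

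Jam2 (ENSMUSG00000053062, chr16:84774123-84825928, plus strand, 4 transcripts) encodes junctional adhesion molecule B, a surface protein. It was at 35.5 and 33.7 FPKM in 1343KO and at 29.9 and 28.5 FPKM in WT at day 0. It was at 15.8 and 16.8 FPKM in 1343KO and at 0.607 and 0.914 FPKM in WT at day 8, and at 7.02 and 8.31 FPKM in 1343KO and at 2.37 and 1.25 FPKM in WT at day 16. Jam2 kept the smallest share of its day 0 level in 1343KO at day 16 among the 9, while in WT it was lowest at day 8, so the lines came closer at day 16. The change between the lines was 0.24 ± 0.19 at day 0 (interval -0.20 to 0.67, adjusted p = 0.619), 3.30 ± 0.19 at day 8 (adjusted p = 1.96e-06) and 1.65 ± 0.19 at day 16 (adjusted p = 7.85e-05). In 1343KO it fell by 1.04 at day 8 (adjusted p = 0.0045) and fell by 2.04 at day 16 (adjusted p = 9.25e-05), and the change at day 16 against day 8, -1.003 ± 0.19, had adjusted p = 0.0575. In WT it fell by 4.11 at day 8 and was 0.65 ± 0.19 higher at day 16 than at day 8 (adjusted p = 0.0326). This last call ended with no filter (adjusted p = 0.0551) and without replicate 1 (0.164) or 2 (0.0532) of day 8 or replicate 1 of day 16 (0.184), and the difference between the lines in that step was -1.65 ± 0.27 (adjusted p = 0.00371). Endothelial cells also carry junctional adhesion proteins, and the 10 endothelial markers summed to 49.3 to 52.4 FPKM in 1343KO and 158 to 165 FPKM in WT at day 8, and to 54.6 to 58.1 FPKM in 1343KO and 162 to 166 FPKM in WT at day 16. Of these 10 markers 0 were higher and 9 lower in 1343KO at each of these days, where 19.6% and 24.1% of all genes were lower. The part of the endothelial markers in the Jam2 result was not tested.

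**Figure D3:**
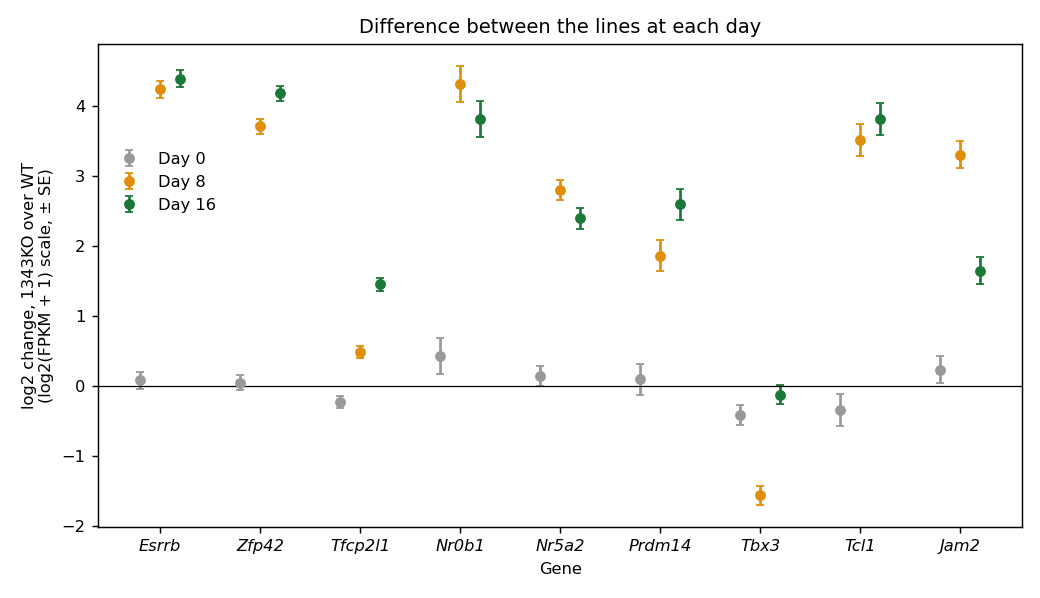
Log2 change of 1343KO over WT on the log2(FPKM + 1) scale (vertical axis, ± SE) for each of the 9 genes (horizontal axis) at day 0 (grey), day 8 (orange) and day 16 (green). The day 0 points lie between -0.41 and 0.43, and the later points lie between 0.49 and 4.39 except for Tbx3.

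By line, 8 of the 9 genes fell in WT at day 8 and all 9 had fallen there at day 16, while in 1343KO the share of the day 0 level that was left ranged widely between genes. In WT at day 8 against day 0, 8 of 9 fell and Tbx3 did not pass, where 51.3% of all genes passed, 26.8% higher and 24.5% lower. In WT at day 16 against day 0 all 9 fell, where 61.2% passed, 32.7% higher and 28.5% lower. In 1343KO at day 8 against day 0, 5 fell (Esrrb, Zfp42, Tfcp2l1, Tbx3 and Jam2), Tcl1 rose and 3 did not pass, where 23.5% passed, 15% higher and 8.51% lower. In 1343KO at day 16 against day 0, 6 fell (the same 5 and Nr0b1) and 3 did not pass, where 26.8% passed, 18.2% higher and 8.6% lower. Over all genes the share of calls that were higher in 1343KO at day 8 against day 0 was 63.8% as deposited, 53.5% after TPM scaling and 52.5% after median-of-ratios scaling, and at day 16 against day 0 it was 67.9% as deposited and 51.2% with median-of-ratios scaling. Without 1 library, between 4 and 6 members passed in 1343KO at day 8 against day 0, and 5 or 6 at day 16.

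As a share of the mean day 0 level of the same line, the members' median was 66.8% in 1343KO and 7.54% in WT at day 8, and 60.6% in 1343KO and 4.46% in WT at day 16. The WT day 16 median is the share of Prdm14, whose values there stand for only about 4 and 2 fragments, so it is approximate. Esrrb kept 69.8% in 1343KO and 3.04% in WT at day 8, and 66.8% in 1343KO and 2.46% in WT at day 16. Nr5a2 kept the most among the genes that did not gain, with 90.6% in 1343KO and 7.54% in WT at day 8 and 97.0% in 1343KO and 13.9% in WT at day 16. Tbx3 was the exception, with 50.1% in 1343KO and 117% in WT at day 8. At day 16 Tbx3 was at 36.4% in 1343KO and 29.9% in WT. Jam2 had the lowest share in 1343KO at day 16, 22.2%, against 6.19% in WT.

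**Figure D4:**
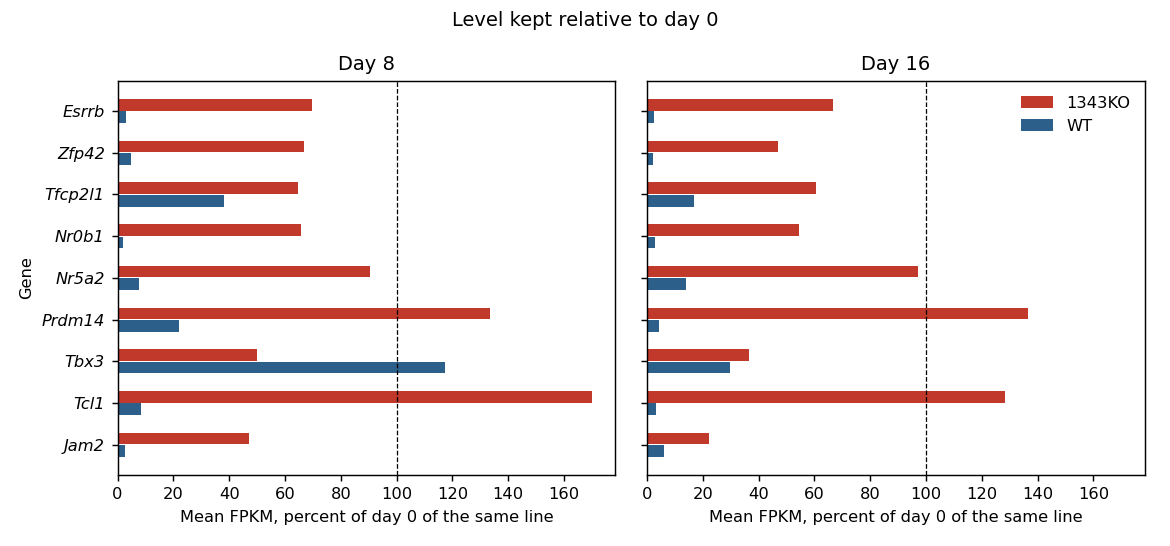
Mean FPKM as a percent of the mean at day 0 of the same line (horizontal axis) for each of the 9 genes (vertical axis) at day 8 (left) and day 16 (right), with 1343KO (red) above WT (blue) and a dashed line at 100 percent; bars are ratios of means of 2 libraries and carry no error. The red bars exceed the blue ones for every gene but Tbx3 at day 8 and for all 9 at day 16. The WT bar of Prdm14 at day 16 rests on only about 4 and 2 fragments.

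Between day 8 and day 16 the change differed between the lines for 3 of the 9 genes. In 1343KO at day 16 against day 8, 0 of 9 members passed with limma (3 at an unadjusted p under 0.05), where 0.804% of all genes passed. The changes there were -0.06 for Esrrb, -0.08 for Tfcp2l1, -0.26 for Nr0b1, 0.09 for Nr5a2, 0.05 for Prdm14, -0.39 for Tbx3 and -0.39 for Tcl1, beside those of Zfp42 and Jam2 given above. Leaving out either WT day 16 library gave Jam2 an adjusted p of 0.0251 or 0.0238, and a filter at a mean of 5 FPKM gave 0.0436, so that count was 1 there. In WT at day 16 against day 8, 4 fell (Zfp42, Tfcp2l1, Prdm14 and Tbx3), 2 rose (Nr5a2 and Jam2) and 3 did not pass, where 27.6% of all genes passed, 14.1% higher and 13.5% lower. The 3 were Esrrb (-0.21), Nr0b1 (0.25) and Tcl1 (-0.69), with adjusted p = 0.231, 0.543 and 0.0562. The Prdm14 call, -0.68 ± 0.22 (adjusted p = 0.0487), ended with the replicate block (0.052), with no filter (0.0837) and without any 1 of 10 libraries (up to 0.247). Without replicate 1 of WT at day 16, 3 members passed in that step. The difference between the lines in this step passed for Tfcp2l1 (0.97), Tbx3 (1.44) and Jam2 (-1.65), where 16.7% of all genes passed, 8.5% higher and 8.2% lower. It did not pass for Esrrb (0.15), Zfp42 (0.47), Nr0b1 (-0.50), Nr5a2 (-0.40), Prdm14 (0.73) or Tcl1 (0.30).

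The difference between the lines' own changes from day 0 passed for all 9 members at day 8, 8 of them higher in 1343KO and Tbx3 lower, where 28.3% of all genes passed, 15.6% higher and 12.7% lower. Over all genes the share of these calls that were higher was 55.0% as deposited and 40.8% with TPM scaling. At day 16 it passed for 8 members, all higher, where 40% of all genes passed, 21.7% higher and 18.2% lower, and for Tbx3 it was 0.29 ± 0.19 (adjusted p = 0.271). These differences share the day 0 libraries with the changes above and are not further evidence of them.

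The order of the 9 levels, which are per length, changed less in 1343KO than in WT. In 1343KO at day 0 Zfp42, Esrrb, Nr0b1, Jam2 and Tfcp2l1 led in that order with no overlap between neighbours, and Tcl1 and Tbx3 overlapped below them. At day 8 in 1343KO Zfp42 and Esrrb led, Nr0b1 overlapped Tcl1, and Tfcp2l1 overlapped Jam2. At day 16 in 1343KO Esrrb led Zfp42 by a small margin, 73.5 FPKM in its lowest library and 72.2 FPKM in the highest of Zfp42, and Tbx3 overlapped Prdm14 at the bottom. In WT at day 0 the order was Zfp42, Esrrb, Nr0b1, Tfcp2l1, Jam2, Tcl1, Tbx3, Nr5a2 and Prdm14, with an overlap between Tcl1 and Tbx3 alone. In WT at days 8 and 16 Tbx3 was the highest, with Tfcp2l1, Zfp42 and Esrrb next in that order and no overlap among these 4. Below them in WT at day 8, Nr5a2, Prdm14, Jam2 and Nr0b1 overlapped one another, between 0.418 and 1.16 FPKM.

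Profiles were compared by the root mean square difference of log2(FPKM + 1) over the 12 libraries, each gene centred on its own mean. The candidates were 8984 tested genes whose mean was 5 FPKM or more. Unnamed gene models (Gm followed by digits, or names ending in Rik) were left out. This is a description over 12 libraries that all genes share, with no test. The 10 genes nearest to Esrrb were Utf1 (0.243), Dppa5a (0.256), Pou5f1 (0.263), Nr0b1 (0.271), Dnmt3l (0.286), Zfp42 (0.304), Fgf4 (0.325), Gdf3 (0.331), Zfp978 (0.336) and Dppa2 (0.339). Nr0b1 and Zfp42 were thus the only members among the 10. Pou5f1, which encodes Oct4, was the nearest gene to Zfp42 (0.140), Sox2 the nearest to Tcl1 (0.294) and Platr10 the nearest to Nr0b1 (0.217). The nearest genes to the remaining members were Mak16 for Tfcp2l1 (0.137), Zbtb8a for Nr5a2 (0.20), Ung for Prdm14 (0.149), Chchd10 for Jam2 (0.392) and Acaca for Tbx3 (0.433). Tbx3 had no gene among these candidates closer than 0.433, and its distance to Esrrb, 2.32, was the largest between any pair of the 9.

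**Figure D5:**
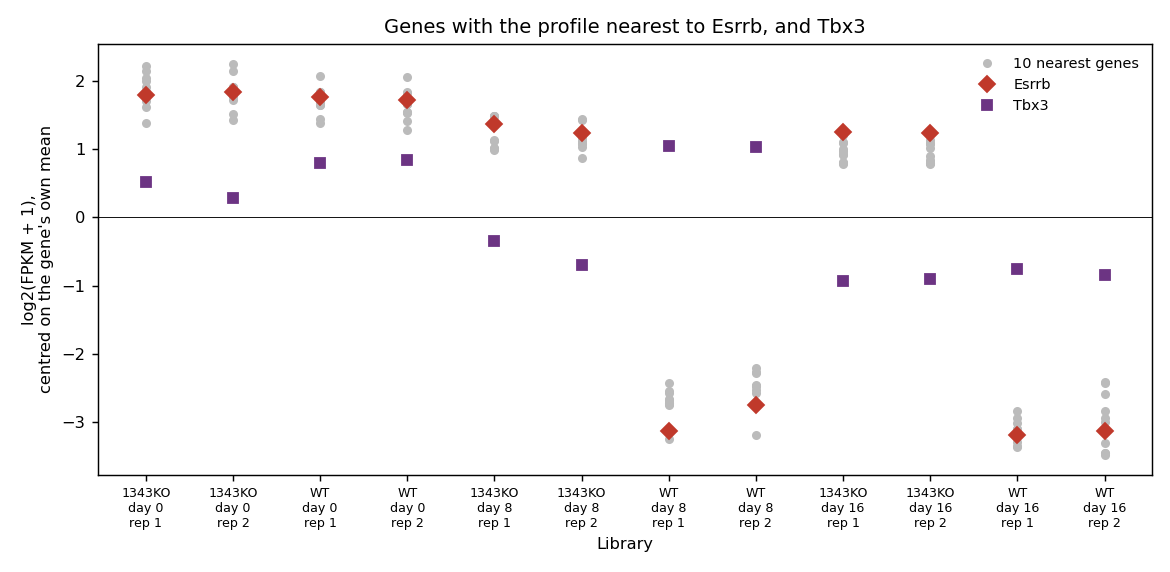
Log2(FPKM + 1) centred on each gene's own mean (vertical axis) in each of the 12 libraries (horizontal axis) for Esrrb (red diamonds), the 10 genes nearest to it (grey points) and Tbx3 (purple squares). Esrrb and its neighbours are high in all libraries but the 4 WT libraries of days 8 and 16, while Tbx3 is highest in the WT libraries of days 0 and 8.

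Other naive factors moved with the 9 genes in the later days. Their list, like all gene lists here, was chosen with earlier results of these data known, so its counts are no independent test. Of the 18 listed, all tested, 17 were higher and 0 lower in 1343KO at day 8 (median 3.14). At day 16, 16 were higher and 0 lower (median 3.36). Over all genes 23.3% were higher and 19.6% lower at day 8, and 28.5% higher and 24.1% lower at day 16. Nanog, the homeodomain factor that Esrrb can stand in for, was at 176 and 185 FPKM in 1343KO and 12.9 and 12.3 FPKM in WT at day 8 (3.74 ± 0.08, adjusted p = 1.99e-08). Klf2, a Krüppel-like factor, was at 101 and 95.9 FPKM in 1343KO and 6.59 and 7.61 FPKM in WT at day 8 (3.62 ± 0.11). Klf4, the STAT3 target beside Tfcp2l1, was 1 of the 2 that did not pass at day 16, when Tbx3 did not pass either. Unlike Tbx3, Klf4 was higher in 1343KO at day 8 (18.4 and 20.3 FPKM against 6.45 and 4.81 FPKM in WT). At day 16 it was at 12.3 and 11.9 FPKM in 1343KO and 13.1 and 10.0 FPKM in WT (0.08 ± 0.15, adjusted p = 0.696). At day 0, 3 of the 18 were higher (Nanog, Manba and Dppa3), Klf5 was lower and 14 did not pass. Over all genes 1.59% were higher and 2.12% lower at that day. Nanog was at 206 and 210 FPKM in 1343KO and 142 and 153 FPKM in WT (0.49 ± 0.08, adjusted p = 0.0126). These day 0 calls rest on a spread shared by all 12 libraries, and no gene passed with day 0's 4 libraries fitted alone. Within 1343KO at day 8 against day 0, 3 of the 18 rose, 9 fell and 6 did not pass (median -0.46). Klf2 was up (0.90 ± 0.11) and Klf4 down (-2.27 ± 0.15), and over all genes 15% were higher and 8.51% lower. Oct4 and Sox2, the core factors beside this network, differed at day 8 too, with Pou5f1 at 469 and 453 FPKM in 1343KO and 35.6 and 36.2 FPKM in WT, and Sox2 at 188 and 188 FPKM in 1343KO and 18.5 and 19.5 FPKM in WT.

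Formative factors were also higher in the differentiating 1343KO line than in WT. Of 14 such genes 12 were higher and 1 lower in 1343KO at day 8 (median 2.21), or 10 higher and 1 lower with TPM scaling. At day 16, 13 were higher and 1 lower (median 2.88). Over all genes 23.3% were higher and 19.6% lower at day 8, and 28.5% higher and 24.1% lower at day 16. Otx2, a homeodomain factor of the formative epiblast, was at 56.7 and 58.2 FPKM in 1343KO and 11.3 and 10.2 FPKM in WT at day 8 (2.31 ± 0.23, adjusted p = 5.53e-05). Fgf5, a growth factor of the same stage, was at 24.8 and 24.1 FPKM in 1343KO and 1.54 and 1.85 FPKM in WT (3.24 ± 0.22, adjusted p = 5.25e-06). Both were low in ES cells of both lines, with 0.318 to 1.30 FPKM for Fgf5 and 3.26 to 5.73 FPKM for Otx2 at day 0. In 1343KO at day 8 against day 0, 5 of the 14 rose, 3 fell and 6 did not pass, where 15% of all genes were higher and 8.51% lower. Whether the same cells carried naive and formative transcripts was not tested, since these are bulk samples.

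The genes that feed the network went in both directions. Of 9 LIF pathway genes 0 were higher and 2 lower in 1343KO at day 0, where 1.59% of all genes were higher and 2.12% lower. The 2 were Socs3, the feedback inhibitor of JAK (-0.63 ± 0.12, adjusted p = 0.0252), and Ptpn11 (-0.39 ± 0.08, adjusted p = 0.0369). At day 8, 1 was higher and 5 lower (median -0.36, and -0.56 with TPM scaling), where 23.3% of all genes were higher and 19.6% lower, with the kinase gene Pim1 higher (1.11 ± 0.10) and Jak2 (-1.12 ± 0.18) and Stat3 (-0.91 ± 0.15) lower, and at day 16, 2 were higher and 4 lower (median -0.24, and -0.38 with TPM scaling), where 28.5% of all genes were higher and 24.1% lower. Of 11 WNT pathway genes 1 was higher at day 0, 2 at day 8 and 4 at day 16, with 1 lower at day 16, and the later counts lie near the shares of all genes just given. The median of the WNT list at day 8 was 0.13 as deposited and -0.06 with TPM scaling. Tcf7l1, the repressor of Esrrb, was the 1 WNT gene higher at every day in 1343KO, at 26.5 and 26.1 FPKM against 16.6 and 16.3 FPKM in WT at day 0 (0.65 ± 0.09, adjusted p = 0.00771). At day 8 Tcf7l1 was at 29.6 and 26.9 FPKM in 1343KO and 16.6 and 18.6 FPKM in WT (0.65 ± 0.09, adjusted p = 0.000495), and at day 16 at 30.9 and 30.8 FPKM in 1343KO and 17.3 and 19.0 FPKM in WT (0.73 ± 0.09, adjusted p = 0.000157). It did not change with time in either line at the threshold. The day 0 calls of Socs3, Ptpn11 and Tcf7l1 rest on a spread shared by all 12 libraries. With day 0's 4 libraries fitted alone no gene passed. Tcf7, an activating relative, was higher in 1343KO at day 8 (1.06 ± 0.11) and day 16 (2.38 ± 0.11).

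Partners and coregulators of the members were split. Of 13 listed genes 12 were in the table and tested, and 0 passed at day 0 in limma (1 at an unadjusted p under 0.05). At day 8, 6 were higher and 2 lower in 1343KO (4 and 3 after TPM scaling, 5 and 3 after median-of-ratios scaling), and at day 16 again 6 were higher and 2 lower, beside 42.8% and 52.6% of all genes that passed in either direction. Ncoa3, a coactivator that binds Esrrb, was higher at day 8 (1.10 ± 0.14), as were Jarid2 (1.92 ± 0.16) and Suz12 (0.81 ± 0.08), parts of the Polycomb complex that works with Prdm14. Akt1, which encodes an AKT kinase that Tcl1 binds, was lower at day 16 (-1.41 ± 0.11). Of the members' close relatives 14 of 23 were tested, with 1 higher and 0 lower in 1343KO at day 0. At day 8, 4 were higher and 3 lower (median 0.20, and with TPM scaling 4 and 4 with a median of 0.02), beside the 42.8% of all genes that passed. At day 16, 6 were higher and 3 lower (median 0.10; 3 and 3 with either scaling, and a median of -0.02 or -0.03), beside 52.6% of all genes. Grhl2, a Grainyhead-like relative of Tfcp2l1, was at 9.89 and 14.7 FPKM in 1343KO and 1.60 and 2.18 FPKM in WT at day 8 (2.19 ± 0.24), and Prdm1, a relative of Prdm14, was at 11.5 and 9.73 FPKM in 1343KO and 2.86 and 3.06 FPKM in WT (1.55 ± 0.26). Both were thus higher in 1343KO, like the members they are related to. Esrra, the close relative of Esrrb, stayed between 5.53 and 10.0 FPKM over all 12 libraries, and Esrrg was at most 0.448 FPKM. Nr5a1 and Nr0b2, the relatives of Nr5a2 and Nr0b1, did not exceed 0.383 FPKM, and the 5 Tcl1b genes, which share sequence with Tcl1, did not exceed 0.815 FPKM, with Tcl1b1, Tcl1b3 and Tcl1b5 at 0 in every group. Tbx2, the nearest relative of Tbx3, was at 0.641 and 0.648 FPKM in 1343KO and 5.27 and 4.71 FPKM in WT at day 8 (-1.86 ± 0.19, adjusted p = 6.11e-05). At day 16 Tbx2 was at 1.83 and 1.98 FPKM in 1343KO and 5.80 and 6.98 FPKM in WT (-1.34 ± 0.19, adjusted p = 0.000286), so it remained lower when Tbx3 did not. Jam3, the relative of Jam2, was lower at day 8 (-1.11 ± 0.16, adjusted p = 0.000453), in the direction opposite to Jam2.

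Beside these results, the ES cell identity genes summed to 1205 to 1244 FPKM in 1343KO and 288 to 297 FPKM in WT at day 8, and to 1157 to 1163 FPKM in 1343KO and 115 to 116 FPKM in WT at day 16. Of these 6 genes 5 were higher and 1 lower in 1343KO at day 8, and all 6 were higher at day 16. The lower one was Lin28a, an RNA-binding protein gene that made up most of the WT sum at day 8, at 118 and 120 FPKM in 1343KO and 177 and 177 FPKM in WT (-0.57 ± 0.06). Markers of fibroblasts and mesenchyme summed to 46.0 to 47.1 FPKM in 1343KO and 259 to 284 FPKM in WT at day 8, and to 62.3 to 65.6 FPKM in 1343KO and 3862 to 3983 FPKM in WT at day 16, with 9 of 10 lower in 1343KO at both days and 1 higher at day 8. Heart muscle markers summed to 9.49 to 11.7 FPKM in 1343KO and 88.4 to 91.3 FPKM in WT at day 8 (6 of 8 lower), and to 53.1 to 54.7 FPKM in 1343KO and 53.2 to 76.0 FPKM in WT at day 16 (2 higher and 2 lower). Neural markers went the other way at day 8, with 6 of 7 tested higher and 0 lower in 1343KO, and 3 higher and 1 lower at day 16. Their sums were low, and highest in ES cells, at 40.7 to 43.0 FPKM in 1343KO and 35.7 to 36.8 FPKM in WT at day 0. At day 8 they were 17.4 to 17.9 FPKM in 1343KO and 7.59 to 7.95 FPKM in WT. At day 16 they were 24.1 to 28.4 FPKM in 1343KO and 21.5 to 24.8 FPKM in WT. At day 8 against day 0, 4 of the 7 fell and 1 rose in 1343KO, where 8.51% of all genes were lower and 15% higher. In WT 5 of the 7 fell and 0 rose, where 24.5% were lower and 26.8% higher. Beside the counts of these lists between the lines, 23.3% of all genes were higher and 19.6% lower in 1343KO at day 8. The shares at day 16 were 28.5% and 24.1%. The 9 genes themselves summed to 291 to 321 FPKM in 1343KO and 54.1 to 55.3 FPKM in WT at day 8, and to 248 and 248 FPKM in 1343KO and 22.9 to 23.9 FPKM in WT at day 16. The part of cell composition in the members' differences was not tested.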

How the data were processed

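Poly(A) RNA-seq of 12 libraries was deposited as FPKM per gene, computed by the authors with Cufflinks 2.1.1 on GRCm38/mm10 (per the submitters' processing notes); the sources used here give no other step. FPKM sets each library's total and transcript length, so a group of very abundant genes lowers the others. Depth was estimated from the lowest values as whole numbers of fragments (within 5%, up to 3 fragments, transcripts of at least 1500 nt, an assumed fragment of 200 nt); 86.1% to 89.0% of values fitted, and fragments behind single values are approximate.

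Log2(FPKM + 1) was tested for the 16289 genes that reached 1 FPKM in 2 or more libraries, with limma 3.58.1 (R 4.3.3), with 1 mean per group over all 12 libraries, trended empirical Bayes, 6 residual degrees of freedom, 12 contrasts and Benjamini-Hochberg adjustment within each contrast. No label says that replicates came from separate cultures. The p-values therefore rest on a spread between libraries that may be technical, and an exact permutation test of 2 against 2 libraries cannot go below 0.333. On simulated data for 1343KO against WT at day 8 (16289 genes, 200 changed) the fit recovered 65% of genes changed 2-fold and 87% changed 4-fold, and 4.40% of calls were false. These folds are of FPKM + 1, with decreases stopped at 0, and the noise was normal and independent between genes. In the data 6973 genes passed in that contrast, far more than were changed in the simulation, so these rates cannot be carried over to it.

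The members and all gene lists were chosen with earlier results of these data known. The rule named all 9 members in every contrast. Of each other list at most 4 genes that passed with the smallest p were eligible per contrast, plus Pou5f1, Sox2, Nanog, Klf4, Klf2, Tcf7l1, Otx2 and Fgf5. Esrra, Esrrg, Nr5a1, Nr0b2 and the Tcl1b genes were named as relatives, with levels alone. The 7 motifs were chosen after the windows were seen. Gene positions are the deposited IDs looked up in GENCODE M21 (GRCm38, counted from 1; 99.95% of IDs matched), and promoter windows are from RefSeq, GRCm38.p6. Python 3.11.15 with pandas 2.3.3, numpy 2.4.6 and matplotlib 3.10.9 was used for the rest. Every result was recomputed with TPM and median-of-ratios scaling, no filter or one at a mean of 5 FPKM, a pseudocount of 0.1, robust empirical Bayes, a replicate block, each day's 4 libraries alone and each library left out.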

Additional observations from a re-analysis of the deposited data

Results flagged for a closer look

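For 20 results the change over time differed between the lines when the difference itself was tested (limma on log2(FPKM + 1), Benjamini-Hochberg over 16289 genes, 2 libraries per group). Values are the change in 1343KO minus the change in WT. Over all genes 28.3% passed this test at day 8 against day 0, 40% at day 16 against day 0 and 16.7% at day 16 against day 8. These differences share their libraries with the changes given above and are not further evidence of them. At day 8 against day 0 the difference was 4.16 ± 0.17 (SE) for Esrrb, 3.66 ± 0.15 for Zfp42, 3.88 ± 0.37 for Nr0b1, 3.86 ± 0.33 for Tcl1, 3.07 ± 0.27 for Jam2 and 2.65 ± 0.20 for Nr5a2. It was 1.77 ± 0.31 for Prdm14 and 0.71 ± 0.13 for Tfcp2l1, and Tbx3 was the one gene on the other side, at -1.15 ± 0.19 (adjusted p = 0.00243). The highest adjusted p of the 9 was that of Tfcp2l1, 0.00336. At day 16 against day 0 the difference was 4.31 for Esrrb, 4.16 for Tcl1, 4.14 for Zfp42, 3.38 for Nr0b1, 2.50 for Prdm14, 2.25 for Nr5a2, 1.68 for Tfcp2l1 and 1.42 for Jam2, with the highest adjusted p, 0.00282, for Jam2. At day 16 against day 8 it was 1.44 for Tbx3, 0.97 for Tfcp2l1 and -1.65 for Jam2 (adjusted p = 0.00139, 0.00126 and 0.00371). The groups had 2 libraries each, too few to look for a single library far from the others.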

How the results depend on the processing

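Over 22 alternative settings, 2000 values of single members kept their direction and their side of the threshold, 45 lost the threshold, 14 gained it and 8 changed sign. The 2000 include fits that left out a library of neither compared group. There the change itself could not move, so its kept direction is no check. All 8 values that changed sign were small and had not passed, each with 1 library left out: in 1343KO at day 16 against day 0, Nr5a2 ranged from -0.14 to 0.048. In 1343KO at day 16 against day 8, Esrrb ranged from -0.13 to 0.0081, Prdm14 from -0.23 to 0.34 and Nr5a2 from -0.00059 to 0.18. In WT at day 16 against day 8, Nr0b1 ranged from -0.10 to 0.60 (-0.0032 without replicate 1 of day 8). For the difference of these steps, Esrrb ranged from -0.042 to 0.35 and Tcl1 from -0.0016 to 0.60. The members' calls between the lines were 0 at day 0, 9 at day 8 and 8 at day 16 under every alternative that gave all 9 a value. With day 0's 4 libraries alone, 0 genes passed between the lines at day 0, against 604 with all 12. With a mean of at least 5 FPKM, 1 member (Jam2) passed in 1343KO at day 16 against day 8, and Prdm14 gave no value. With a pseudocount of 0.1, 5 members passed for the difference of steps at day 16 against day 8, with Prdm14 (adjusted p = 0.04) and Zfp42 (0.0358) added; the cause was not tested.

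Leaving out 1 library at a time, genes passing between the lines numbered 203 to 513 at day 0. They were 5449 to 6939 for day 8, and for day 16 they were 7284 to 8569. In 1343KO they numbered 2480 to 3633 at day 8 and 2906 to 4286 at day 16 against day 0, and 36 to 132 at day 16 against day 8. In WT they numbered 6932 to 8305, 8730 to 9955 and 3050 to 4479 for the same contrasts. For the differences of changes they numbered 3607 to 4478, 5599 to 6456 and 1840 to 2642. Members passing numbered 4 to 6 and 5 to 6 in 1343KO at days 8 and 16 against day 0, 0 to 1 in 1343KO and 3 to 6 in WT at day 16 against day 8, and 3 to 4 for the difference of those steps. A group left with 1 library was assumed to vary like the others.

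Same-numbered libraries shared no deviation over all genes: over 15 pairs of groups their deviations correlated at -0.04 to 0.04. A pairing that affects few genes would not be seen this way. With the replicate block, 5 members passed in 1343KO at day 8 and 5 at day 16 against day 0, and 5 in WT at day 16 against day 8, since Tcl1, Nr0b1 and Prdm14 each missed the threshold once; other member calls did not change. TPM scaling moved the median of all genes by -0.146 for 1343KO against WT at day 8 and by -0.139 for the difference of changes at day 8, and median-of-ratios scaling by -0.106 for 1343KO at day 16 against day 0; no member changed sign under either. Depth limits the lowest WT levels, where Prdm14 at day 16 and Nr0b1 at day 8 rest on few fragments.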
